A study of Mus musculus with 4 samples.

Results

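The constitutive proteasome was followed here through 32 transcripts, the 14 subunits of its 20S core (Psma1 to Psma7 and Psmb1 to Psmb7) and 18 subunits of its 19S regulator, the ubiquitin receptor Psmd4 among them. They were taken by name from the 13518 genes of the expression table, and all 32 were measured. The rule takes genes by name and uses no measured value, although the set was chosen with earlier results of these data known. The immunoproteasome subunits and the PA28 activator (Psmb8, Psmb9, Psmb10, Psme1 and Psme2) are not members and served as context.

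The cells came from tumours that grew after MC38 mouse colon carcinoma was implanted orthotopically in C57BL/6 mice, and all 4 arms share this model. The arms were vehicle, anti-PD-1 antibody (3 times a week, 5 doses in total), Atractylenolide I (ATT-I, 50 mg/kg every day) and both agents together (the combination), and tumours were taken 2 weeks after treatment began. The protocol calls the first arm a vehicle control, whereas its own entry says that it was not treated and its title reads WT. The labels give the strain and the 5 tumours pooled into each arm's single 10x Genomics droplet library. Apart from that title they give no genotype, and they give no age or number of mice. An arm therefore has 1 library and no replicate, and differences between arms are differences between 4 libraries, with no test.

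The 20S core is a barrel of stacked rings. Its outer rings of alpha subunits gate the entrance, and its inner rings of beta subunits hold the catalytic sites: Psmb5 carries the chymotrypsin-like, Psmb6 the caspase-like and Psmb7 the trypsin-like activity. The 19S regulator caps the barrel, where the Psmc ATPases of its base unfold substrates, Psmd4 (Rpn10) and Adrm1 (Rpn13) bind ubiquitin chains, Psmd1 and Psmd2 form the scaffold of the base, and the lid enzyme Psmd14 (Rpn11) removes the chains. In activated lymphocytes and under interferon, Psmb8, Psmb9 and Psmb10 take the places of Psmb5, Psmb6 and Psmb7 in newly built cores, and the peptides that the proteasome makes feed MHC class I presentation. PSMD4 protein has been reported as a binding target of ATT-I in tumour cells, and transcripts say nothing of that binding.

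Proteasome genes are commonly transcribed from promoters shared in design across subunits, and 3 promoters are shown because they belong to the subunits that recur below. They hold the 250 bases before the annotated start, from RefSeq on GRCm38.p6, read 5′ to 3′ on the gene's own strand. The Psmd4 promoter (chr3:95042615-95042864, minus strand) has in capitals an ETS core, CCGGAAG, starting 125 bases before the start site, and a CCAAT box on the other strand starting 95 bases before it. In the Psmb5 promoter (chr14:54617996-54618245, minus strand) and the Psmb6 promoter (chr11:70525107-70525356, plus strand) the capitals mark an antioxidant response element, TGACNNNGC, the kind of site bound by NFE2L1, a transcription factor known to raise proteasome genes when proteasome activity falls.
Psmd4: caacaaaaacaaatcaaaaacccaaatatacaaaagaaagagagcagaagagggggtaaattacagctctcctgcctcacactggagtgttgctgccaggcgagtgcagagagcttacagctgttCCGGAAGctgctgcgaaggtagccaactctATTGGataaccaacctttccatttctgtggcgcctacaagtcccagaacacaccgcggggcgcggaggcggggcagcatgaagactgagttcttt
Psmb5: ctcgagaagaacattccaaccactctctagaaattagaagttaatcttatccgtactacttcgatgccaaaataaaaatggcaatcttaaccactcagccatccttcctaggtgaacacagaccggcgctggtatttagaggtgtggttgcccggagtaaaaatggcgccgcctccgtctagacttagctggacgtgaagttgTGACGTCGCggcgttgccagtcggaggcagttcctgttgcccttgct
Psmb6: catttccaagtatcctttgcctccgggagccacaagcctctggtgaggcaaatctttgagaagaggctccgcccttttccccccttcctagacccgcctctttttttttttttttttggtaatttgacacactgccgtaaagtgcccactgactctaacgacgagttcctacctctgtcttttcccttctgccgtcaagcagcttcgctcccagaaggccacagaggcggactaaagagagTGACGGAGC

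Of the 32 members, 26 have a promoter in that table, and 8 motifs were searched on both strands over the same window in all 32851 promoters. The antioxidant response element was found in 5 of the 26 (Adrm1, Psmb5, Psmb6, Psmc6 and Psmd12; 19.2%) and in 10.2% of all promoters. CCGGAAG was in 9 members, Psmd4 among them (34.6% against 6.91%), CCAAT in 11 (42.3% against 33.8%) and the GC box GGGCGG in 15 (57.7% against 32.7%). The palindromic site of nuclear respiratory factor 1 was in 6 (23.1% against 3.74%). The E-box CACGTG was in 1 (3.85% against 6.02%), TATAAA in 3 (11.5% against 12.4%) and the cAMP response element TGACGTCA in 0 (against 1.55%). A match is a description of the letters and not evidence of binding.

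Values of the 4 libraries are given in the order vehicle, anti-PD-1, ATT-I, combination where no library is named. The table held 155, 12562, 297 and 199 cells, with 3.10, 108.6, 2.88 and 5.23 × 10⁶ UMIs (unique transcript counts), and 1 cell barcode was shared by 2 libraries. The median cell held 16129, 7148, 6828 and 23927 UMIs. Between 93.5% and 100% of cells had a Cd3 UMI, and the 4 measured epithelial tumour markers summed to between 0.06 and 1.14 UMIs per 10000, and to 3.08 in the ATT-I cells of the CD4 gate described below. Most of the cells were thus T cells, but the 30 vehicle cells in neither gate below (0.85 × 10⁶ UMIs) had NK markers at 17.6 against T cell markers at 11.2, with a Cd3 UMI in 66.7% of them, and they are part of every value for all vehicle cells. The red cell list stood apart in the ATT-I library, at 53.8 UMIs per 10000 against 0.03 to 0.74 in the others, and NK markers were highest in vehicle, at 5.33 against 0.41 to 2.06. The macrophage list ran from 1.26 (combination) to 3.96 (anti-PD-1), with C1qa and C1qc at 0 in ATT-I, and the fibroblast list from 0.01 to 0.41, with Col1a1, Col1a2 and Lum at 0 in vehicle. Their part in the results was not tested.

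Cells were gated on their own transcripts. The CD8 gate (at least 2 UMIs of Cd8a and Cd8b1 together, and more of them than of Cd4) took 51, 9071, 108 and 122 cells. The CD4 gate (at least 1 Cd4 UMI and more than Cd8a and Cd8b1) took 74, 1340, 108 and 65, of which 19, 393, 18 and 26 had a Foxp3 UMI, the mark of regulatory T cells. A UMI of Mki67, a proliferation marker, was found in 67.1%, 32.3%, 28.3% and 74.9% of cells, and in 57.0%, 24.7%, 24.2% and 60.6% after each cell was thinned to 4000 UMIs, which left out 4, 1570, 53 and 6 shallower cells. A negative cell can be one in which the transcript was missed.

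Summed over the 32 members, the proteasome level in all cells was 48.7 UMIs per 10000 for vehicle, 59.1 for anti-PD-1, 49.1 for ATT-I and 54.1 for the combination. The 20S core made up 31.2, 39.3, 31.7 and 33.9 of these, and the 19S regulator 17.5, 19.8, 17.4 and 20.2. Anti-PD-1 was thus the highest library for the core, the combination for the regulator, and vehicle and ATT-I lay close together in both. The context list of immunoproteasome and PA28 genes summed to 20.8, 27.3, 20.5 and 22.5. These levels count 3′ UMIs and are compared between libraries, not between genes.

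**Figure D1:**
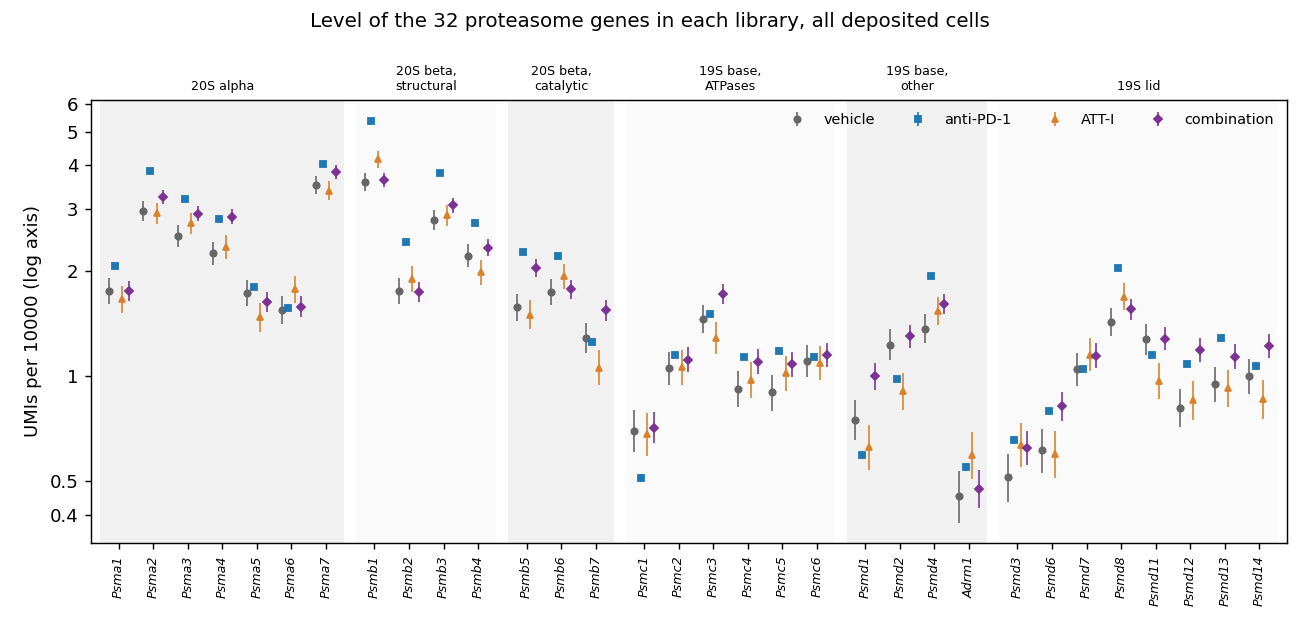
Level of each of the 32 members (UMIs per 10000, log axis) in all cells of the 4 libraries, 1 point per library with its exact 95% Poisson interval as a bar, and with members grouped by role. Anti-PD-1 lies highest for most 20S subunits, while the order of the libraries changes from gene to gene in the 19S base.

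Psmd4 stood at 1.36 UMIs per 10000 for vehicle (exact 95% Poisson interval 1.24 to 1.501, from 423 UMIs), 1.93 for anti-PD-1 (1.91 to 1.96, 21007 UMIs), 1.54 for ATT-I (1.40 to 1.69, 442 UMIs) and 1.61 for the combination (1.5004 to 1.72, 841 UMIs). Anti-PD-1 was the highest library and its interval touched no other, while the intervals of ATT-I and the combination overlapped. Psmd4 maps to chr3:95032694-95042614 on the minus strand of GRCm38 in the GENCODE annotation. Such intervals, here and below, cover counting error only.

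The catalytic subunits did not share 1 order of libraries. Psmb5 was 1.57, 2.26, 1.497 and 2.04 UMIs per 10000, high in both arms that received anti-PD-1. Psmb6 was 1.74, 2.20, 1.93 and 1.77, high in anti-PD-1 alone. Psmb7 was 1.28, 1.253, 1.06 and 1.54, highest in the combination. The named pseudogenes of these 3 genes, 1 for Psmb5, 2 for Psmb6 and 1 for Psmb7, and genes that overlap Psmb7 (Nek6), Psma2 (AW209491), Psmc3 (Slc39a13) and Psmd13 (Sirt3) make the assignment of their reads less certain.

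Against vehicle, anti-PD-1 cells had more proteasome transcript: the median log2 ratio of the 32 members was 0.31, where all 8470 genes compared had a median of -0.24. Of the members, 15 were higher by a log2 ratio of at least 0.32, the fold used here, and 3 lower, where 18.0% of all genes were higher and 45.3% lower by that fold. Relative to the median gene, 22 were higher and 0 lower, against 31.5% and 30.7% of all genes. Counting intervals lay above 0 for 20 members and below 0 for 4, against 20.4% and 44.3% of all genes.

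By role, the medians were higher in the core and the lid than in the base. Differences between roles were not tested, and these ratios are not scaled by transcript length. The 4 structural beta subunits had a median log2 ratio of 0.45, the alpha ring 0.24 and the 8 lid subunits 0.36, while the 6 base ATPases had 0.09 and the 4 other base subunits -0.02. The largest ratio was that of Psmb1, a structural beta subunit, at 0.57 (95% interval 0.49 to 0.66; 3.59 against 5.35 UMIs per 10000), followed by Psmb5 at 0.53 (0.40 to 0.66) and the lid subunit Psmd8 at 0.51 (0.38 to 0.65; 1.43 against 2.04). Psmd4 was next in size, at 0.50 (0.36 to 0.65), with Psmb6 at 0.34 (0.22 to 0.47) and Psmb7 at -0.03 (-0.18 to 0.11). The lowest were the ATPase Psmc1 at -0.45 (-0.65 to -0.25; 0.70 against 0.51) and the base scaffold subunits Psmd1 at -0.33 (-0.52 to -0.14; 0.75 against 0.59) and Psmd2 at -0.33 (-0.48 to -0.18; 1.23 against 0.98). Among the 4 base subunits that are not ATPases, Psmd4 was thus higher and both scaffold partners lower, with Adrm1 between them. This split runs alongside transcript length. Psmd1 (3112 bases) and Psmd2 (2961 bases) belong to a length class in which all genes had a median of -0.20. In the class of Psmd4 (1756 bases) all genes had 0.20.

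**Figure D2:**
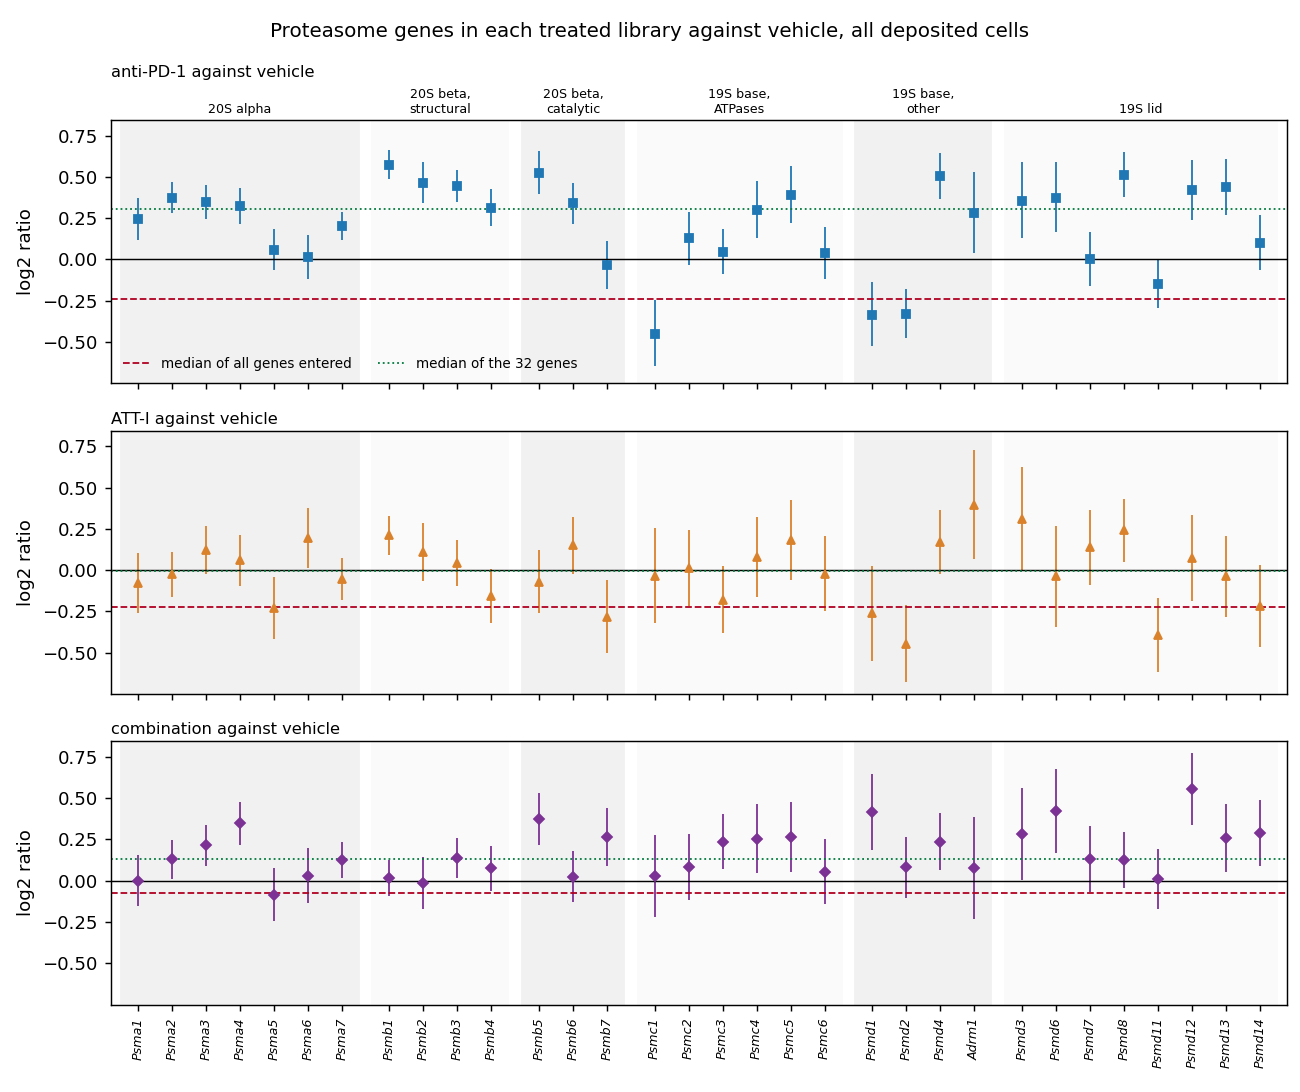
Log2 ratio of each member's level in all cells for each treated library against vehicle, with exact 95% counting intervals as bars; the dashed line is the median of all genes compared and the dotted line the median of the 32 members. In anti-PD-1 against vehicle the 20S members lie mostly above 0, whereas Psmc1, Psmd1 and Psmd2 lie below it.

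The libraries differed by transcript length, and proteasome transcripts are short. For anti-PD-1 against vehicle, the median log2 ratio of all genes was 0.26 for transcripts under 1000 bases, 0.20 from 1000 to 2000, -0.20 from 2000 to 4000 and -0.59 above 4000. The members had 0.45, 0.28 and 0.04 in the first 3 classes (4, 21 and 7 members) and none in the longest. Relative to genes of the same length class the members' median was 0.10 and Psmd4 (transcript of 1756 bases) stood at 0.30, with Psmb5 at 0.26, Psmb6 at 0.08 and Psmb7 at -0.24. With that scaling 4 members were higher by that fold and 1 lower, where 24.6% and 26.0% of all genes were. Medians of ATT-I against vehicle were lower with length in the same order (0.11, 0.07, -0.20 and -0.56), and those of the combination against vehicle hardly differed (0.03, 0.02, -0.08 and -0.14).

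**Figure D3:**
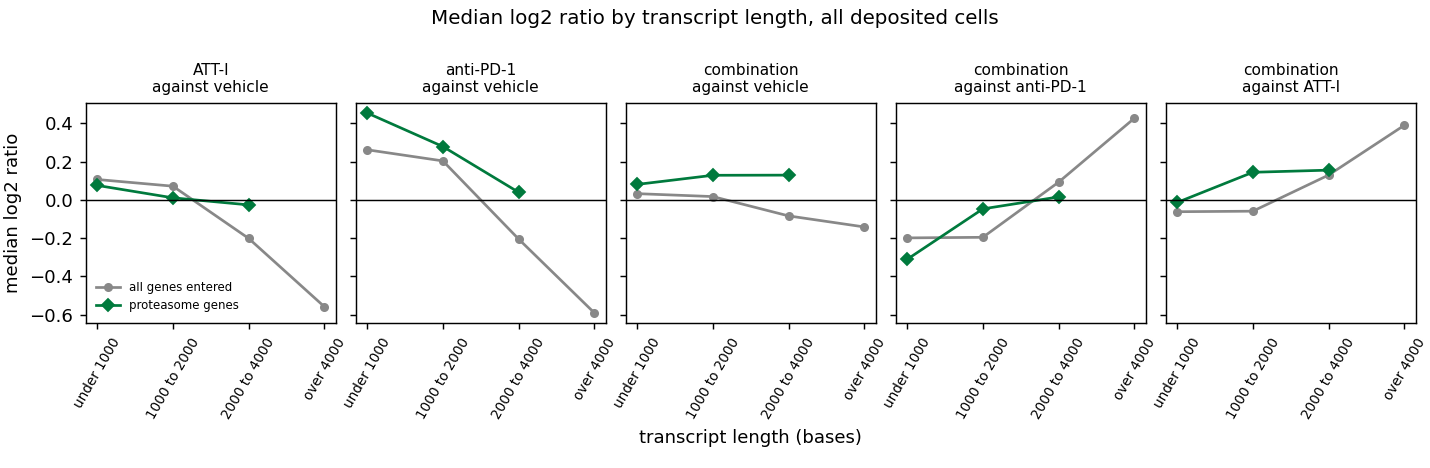
Median log2 ratio of all genes and of the members (vertical axis) in each transcript length class in bases (horizontal axis), for the 5 arm comparisons in all cells. In anti-PD-1 against vehicle the median of all genes goes from 0.26 in the shortest class to -0.59 in the longest, and that of the members from 0.45 to 0.04 over the 3 classes that hold any.

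The Psmd4 ratio of anti-PD-1 against vehicle kept its sign in every subset of cells examined, with changed size. It was 0.42 in cells with a Cd3 UMI, 0.26 in cells of 5000 to 20000 UMIs, 0.45 in Mki67-positive and 0.69 in Mki67-negative cells. Mki67-positive cells made up 67.1% of vehicle and 32.3% of anti-PD-1 cells, and the 15 proliferation genes had a median log2 ratio of -0.82. How far that mixture moves the members' ratios was not tested beyond these subsets.

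With ATT-I alone the members as a group lay at the vehicle level: the members' median log2 ratio was -0.0050, above the median of all genes at -0.22. Past the fold, 1 member was higher and 2 were lower, where 12.3% and 42.6% of all genes were. Relative to the median gene 11 were higher and 0 lower, against 26.2% and 29.4% of all genes. That scaling takes no account of transcript length. The members had medians of 0.08 under 1000 bases, 0.01 from 1000 to 2000 and -0.03 from 2000 to 4000. All genes of those classes had 0.11, 0.07 and -0.20, so members up to 2000 bases were not above genes of their length. Intervals lay above 0 for 4 members and below 0 for 4, against 9.66% and 34.1% of all genes.

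Psmd4 was 1.36 UMIs per 10000 in vehicle and 1.54 in ATT-I, a log2 ratio of 0.17 (-0.03 to 0.37) whose interval includes 0. The other ubiquitin receptor, Adrm1, had the highest ratio of all members, 0.40 (0.06 to 0.73; 0.45 against 0.59), followed by the lid subunits Psmd3 at 0.31 (-0.00 to 0.63) and Psmd8 at 0.24 (0.05 to 0.43). The lowest were Psmd2 at -0.44 (-0.68 to -0.21; 1.23 against 0.90), the lid subunit Psmd11 at -0.39 (-0.62 to -0.17; 1.27 against 0.97) and Psmb7 at -0.28 (-0.50 to -0.06). Psmb5 at -0.07 (-0.26 to 0.12) and Psmb6 at 0.15 (-0.02 to 0.32) were not told apart from vehicle at this depth. In cells of 5000 to 20000 UMIs the Psmd4 ratio turned to -0.08.

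In the combination the members' median log2 ratio against vehicle was 0.13, where all genes had -0.07. Past the fold, 5 members were higher and 0 lower (12.7% and 27.0% of all genes). Relative to the median gene these were 11 and 0 (17.6% and 22.2%). The interval lay above 0 for 17 members and below 0 for 0 (13.4% and 20.5% of all genes), and 30 ratios were positive (41.9% of all genes). The regulator had a median of 0.24 and the core of 0.10.

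The 8 lid subunits had a median of 0.27, the 6 base ATPases 0.16, the 4 other base subunits 0.16, the 3 catalytic subunits 0.26, the alpha ring 0.12 and the structural beta subunits 0.05, and differences between these groups were not tested. The lid subunit Psmd12 had 0.55 (0.34 to 0.77; 0.81 against 1.19 UMIs per 10000), Psmd6 had 0.42 (0.17 to 0.67; 0.61 against 0.82) and the scaffold subunit Psmd1 had 0.41 (0.19 to 0.64; 0.75 against 0.998). Of the catalytic subunits, Psmb5 had 0.37 (0.22 to 0.53) and Psmb7 0.26 (0.09 to 0.44), while Psmb6 had 0.02 (-0.13 to 0.18). Psmd4 had 0.24 (0.07 to 0.41), smaller than in anti-PD-1 against the same vehicle library, and 0.69 in Mki67-negative cells. The lowest were Psma5 at -0.08 (-0.24 to 0.07), Psmb2 at -0.01 (-0.17 to 0.14) and Psma1 at 0.00 (-0.15 to 0.16). In Mki67-negative cells alone the members' median was 0.39, and in Mki67-positive cells 0.09. The Mki67-negative cells again differed in type, with NK markers at 16.7 UMIs per 10000 in vehicle against 0.17 in the combination.

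Between the combination and anti-PD-1 the members differed in direction, within the base as well as between it and the core, before any scaling by transcript length. The members' median log2 ratio was -0.08 (all genes 0.13), with -0.19 for the core, -0.02 for the base ATPases, 0.10 for the other base subunits and 0.09 for the lid, and 3 members were higher and 3 lower past the fold (37.5% and 21.9% of all genes). Relative to the median gene these were 2 and 10 (30.1% and 29.5%). All genes had medians of -0.20 under 1000 bases, -0.20 from 1000 to 2000 and 0.09 from 2000 to 4000. The members had -0.31, -0.05 and 0.02 in these classes, the last of which holds Psmd1 and Psmd2. Relative to genes of the same length class the members' median was 0.059. The structural beta subunits Psmb1, at -0.56 (-0.63 to -0.49; 3.63 in the combination against 5.35 UMIs per 10000), and Psmb2, at -0.48 (-0.58 to -0.38; 1.74 against 2.42), and the lid subunit Psmd8, at -0.39 (-0.49 to -0.29), were lowest. Psmd4 had -0.27 (-0.37 to -0.17), Psmb6 -0.32 (-0.41 to -0.22) and Psmb5 -0.15 (-0.24 to -0.06). The Psmd4 ratio was -0.07 relative to genes of the same length class, -0.09 in cells of 5000 to 20000 UMIs and -0.0040 in Mki67-negative cells, and with the length scaling Psmb6 had -0.12 and Psmb5 turned to 0.05. Higher in the combination were Psmd1 at 0.75 (0.62 to 0.88; 0.998 against 0.59), Psmc1 at 0.48 (0.32 to 0.63; 0.71 against 0.51), Psmd2 at 0.41 (0.29 to 0.52) and, among the catalytic subunits, Psmb7 at 0.30 (0.19 to 0.40). These comparisons reuse the anti-PD-1 and vehicle libraries, so a member that is extreme in 1 shared library appears in more than 1 of them.

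The combination held more proteasome transcript than ATT-I alone by about as much as the median gene did, 0.12 against 0.15. This match takes no account of transcript length. All genes had medians of -0.06 under 1000 bases, -0.06 from 1000 to 2000, 0.13 from 2000 to 4000 and 0.39 above 4000. The members had -0.01, 0.14 and 0.16 in the classes up to 4000 bases, and the longest class held 0 members. Past the fold, 9 members were higher and 0 lower (37.4% and 19.4% of all genes), and relative to the median gene 5 and 2 (27.1% and 27.9%). Psmd1 had 0.67 (0.43 to 0.93), Psmb7 had 0.54 (0.35 to 0.74), Psmd2 had 0.52 (0.32 to 0.74) and Psmb5 had 0.44 (0.28 to 0.61). Psmd4, at 0.07 (-0.10 to 0.24), and Psmb6, at -0.13 (-0.28 to 0.03), were not told apart between the 2 libraries at this depth. Adrm1 at -0.32 (-0.61 to -0.03), Psmb1 at -0.20 (-0.30 to -0.09) and Psma6 at -0.16 (-0.32 to -0.00) were lowest.

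Restricting the cells to the CD8 gate gave similar medians. The members' median log2 ratio was 0.34 for anti-PD-1 against vehicle (17 members higher and 1 lower past the fold, all genes 20.5% and 48.2%) and 0.10 for ATT-I against vehicle (2 and 1, all genes 15.4% and 48.7%). It was 0.24 for the combination against vehicle (10 and 0, all genes 15.0% and 34.2%), -0.11 against anti-PD-1 (4 and 3, all genes 37.6% and 23.7%) and 0.16 against ATT-I (9 and 0, all genes 40.1% and 20.4%). Relative to the median gene the same 5 comparisons had 26 and 0 (34.1% and 32.6% of all genes), 21 and 0 (30.4% and 32.3%), 18 and 0 (22.4% and 27.0%), 3 and 9 (30.9% and 30.2%), and 6 and 4 (29.1% and 29.4%) members higher and lower. Counts relative to the median gene, here and in the CD4 gate below, take no account of transcript length. The vehicle library has 51 CD8-gated cells, of which 90.2% are Mki67-positive, against 35.2% with anti-PD-1, 39.8% with ATT-I and 90.2% with both.

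The gene with the largest CD8-gate ratio for anti-PD-1 against vehicle was catalytic Psmb5, at 0.79 (0.57 to 1.01), followed by Psmb2 at 0.67 (0.47 to 0.88) and Psmd8 at 0.66 (0.44 to 0.89). At the other end were Psmc1 at -0.39 (-0.70 to -0.06), Psmd2 at -0.28 (-0.51 to -0.03) and Psmd1 at -0.05 (-0.37 to 0.29). Psmd4 had 0.48 (0.26 to 0.71), Psmb6 0.35 (0.16 to 0.54) and Psmb7 0.06 (-0.17 to 0.30). Psmd4 in CD8-gated cells was thus above vehicle with anti-PD-1, where Psmb7 was not told apart from it.

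For ATT-I against vehicle in the CD8 gate, Psmd8 was highest at 0.37 (0.07 to 0.68), then Psmb2 at 0.37 (0.09 to 0.64) and Psmd3 at 0.32 (-0.14 to 0.78), and Psmd2 lowest at -0.41 (-0.78 to -0.05), then Psmd11 at -0.26 (-0.61 to 0.09) and Psmc6 at -0.22 (-0.57 to 0.13). Psmd4 had 0.09 (-0.22 to 0.39), and Psmb5, Psmb6 and Psmb7 had 0.24, 0.17 and -0.18, each with an interval that includes 0. At 51 and 108 cells the interval of Psmd4 does not separate the ATT-I and vehicle libraries.

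For the combination in the CD8 gate, Psmd1 was the leading subunit against each other library, at 0.78 (0.42 to 1.15) against vehicle, 0.82 (0.67 to 0.97) against anti-PD-1 and 0.70 (0.36 to 1.06) against ATT-I. Psmb5 had 0.60 (0.35 to 0.84), -0.19 (-0.30 to -0.09) and 0.36 (0.13 to 0.59) in those comparisons, Psmb7 had 0.40 (0.14 to 0.66), 0.34 (0.21 to 0.46) and 0.58 (0.31 to 0.85), and Psmb6 had 0.03, -0.32 and -0.15. Psmd4 had 0.24 (-0.00 to 0.50), -0.24 (-0.36 to -0.12) and 0.16 (-0.08 to 0.40), and the interval of the difference from anti-PD-1 alone was clear of 0, but that ratio was -0.04 relative to genes of the same length class. Psmd6, a lid subunit, came after Psmd1 and Psmb5 against vehicle, at 0.53, and next after Psmd1 against ATT-I, at 0.69, before Psmd2 at 0.59. Lowest were Adrm1 (-0.09), Psmc6 (-0.03) and Psma5 (-0.02) against vehicle, Psmb1 (-0.54), Psmb2 (-0.44) and Psmd8 (-0.43) against anti-PD-1, and Psmd3 (-0.24), Adrm1 (-0.18) and Psmb6 (-0.15) against ATT-I. Against anti-PD-1, Psmc1 (0.49) and Psmd2 (0.45) followed Psmd1.

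In the CD4 gate Psmd4 had the largest ratio of the 32 members for anti-PD-1 against vehicle, 0.63 (0.38 to 0.88), with 1.46 UMIs per 10000 in vehicle and 2.26 in anti-PD-1. Adrm1 followed at 0.62 (0.14 to 1.14) and Psmb2 at 0.56 (0.32 to 0.80), so both ubiquitin receptors were at the top, while Psmd1 at -0.61 (-0.92 to -0.28), Psmd2 at -0.42 (-0.67 to -0.15) and Psmc1 at -0.41 (-0.76 to -0.05) were lowest. Psmb5 had 0.43 (0.20 to 0.67), Psmb6 0.28 (0.06 to 0.51) and Psmb7 0.07 (-0.18 to 0.34). The members' median was 0.27, with 11 higher and 3 lower past the fold (all genes 17.9% and 47.6%), or 25 and 1 relative to the median gene (32.3% and 32.9%).

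ATT-I against vehicle in the CD4 gate had a median of 0.10, with 4 members higher and 4 lower (all genes 15.3% and 47.6%), or 17 and 0 relative to the median gene (29.6% and 32.5%). Adrm1 led at 0.65 (0.03 to 1.29), before Psmc6 at 0.39 and Psma6 at 0.35 (0.06 to 0.65), and Psmd2 at -0.51 (-0.90 to -0.12), Psmd1 at -0.48 (-0.95 to -0.02) and Psmd14 at -0.44 (-0.87 to -0.01) were lowest. Psmd4 had 0.23 (-0.10 to 0.56; -0.13 in cells of 5000 to 20000 UMIs), Psmb6 0.20, Psmb5 -0.09 and Psmb7 -0.17, all with intervals that include 0. Adrm1 and Psmd2 were thus at the same ends of the list in the CD4 gate as in all cells, of which these cells are a part.

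The combination in the CD4 gate had members' medians of 0.09 against vehicle (2 higher and 0 lower, all genes 18.0% and 37.7%), -0.11 against anti-PD-1 (2 and 4, all genes 34.7% and 23.5%) and 0.05 against ATT-I (3 and 3, all genes 36.2% and 21.8%). Relative to the median gene these were 10 and 0 (26.2% and 29.3% of all genes), 0 and 10 (29.5% and 28.5%), and 2 and 8 (29.7% and 28.1%). Psmd4 had 0.21 (-0.10 to 0.52), -0.42 (-0.63 to -0.22) and -0.02 (-0.32 to 0.28), the second being -0.18 relative to genes of the same length class. Psmb5 had 0.40 (0.11 to 0.69), -0.03 and 0.49 (0.20 to 0.78), Psmb6 had -0.01, -0.29 (-0.49 to -0.10) and -0.22, and Psmb7 had 0.08, 0.00 and 0.25. Psma4 led against vehicle at 0.52 (0.27 to 0.76), with Psmb5 and then Adrm1 after it, the latter at 0.32 (-0.29 to 0.94). Psmd1 led against anti-PD-1 at 0.40 (0.10 to 0.70), before Psmc1 at 0.34 and Psmd2 at 0.21, and Psmb5 led against ATT-I, before Psmd14 at 0.49 and Psma4 at 0.34. Lowest were Psmd11 (-0.22), Psmd2 (-0.21) and Psmd1 (-0.20) against vehicle, Psmb1 (-0.58), Psmb2 (-0.57) and Psmd4 against anti-PD-1, and Psma6 (-0.41), Psmb1 (-0.34) and Adrm1 (-0.34) against ATT-I.

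Across the gates, anti-PD-1 was the highest library for Psmd4 in the CD8 gate (1.35, 1.88, 1.43 and 1.60 UMIs per 10000), the CD4 gate (1.46, 2.26, 1.71 and 1.69) and the Foxp3-positive cells (1.32, 2.22, 1.44 and 1.92). The vehicle library was lowest in each of these 3, and the Foxp3-positive values rest on 19 vehicle and 18 ATT-I cells. In Foxp3-negative cells of the CD4 gate, whose values are given further below, anti-PD-1 was again highest but the combination was lowest. In Mki67-positive cells the values were 1.41, 1.92, 1.57 and 1.56, and in Mki67-negative cells 1.20, 1.94, 1.497 and 1.94. The combination thus had 1.94 in its negative cells and 1.56 in its positive cells, while vehicle and ATT-I ran the other way.

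**Figure D4:**
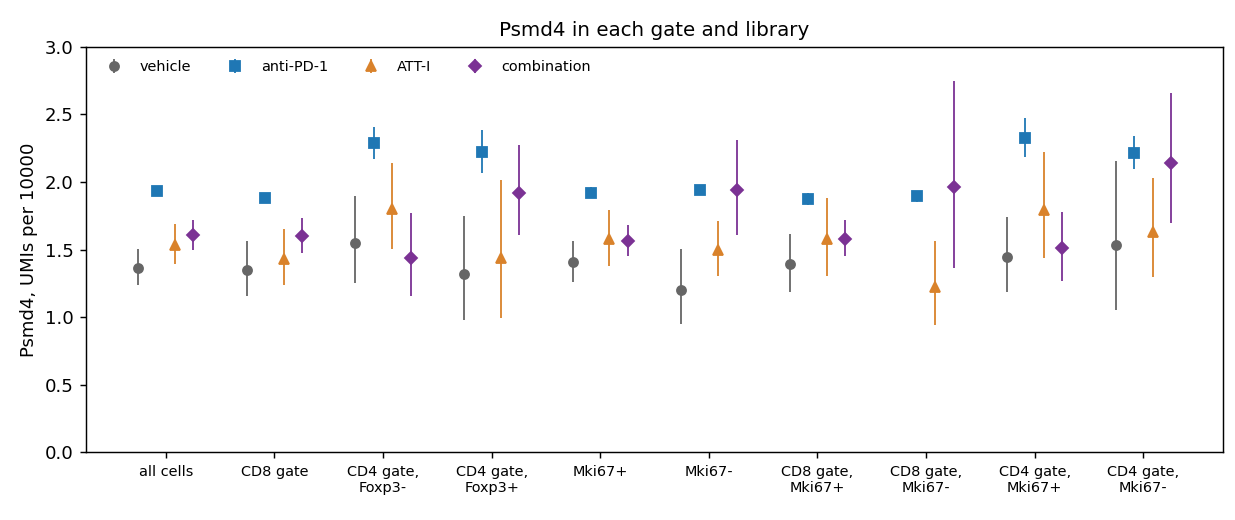
Psmd4 level (UMIs per 10000) in each gate and library, with exact 95% Poisson intervals of the summed UMIs. The anti-PD-1 points lie between 1.87 and 2.33, above the vehicle and ATT-I points of the same gate, while the combination points of Mki67-negative cells lie close to them; vehicle has no point for Mki67-negative CD8-gated cells, of which it had 5.

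Each catalytic subunit can be set against its immunoproteasome counterpart within a library, as the share of the pair's UMIs that came from the constitutive gene (exact 95% binomial intervals). Psmb5 made up 16.7% (15.3% to 18.1%) of the UMIs of Psmb5 and Psmb8 for vehicle, 17.5% (17.3% to 17.7%) for anti-PD-1, 16.2% (14.8% to 17.6%) for ATT-I and 20.97% (19.9% to 22.1%) for the combination. Psmb7 made up 45.1% (41.8% to 48.4%) of Psmb7 and Psmb10 for vehicle, 33.6% (33.1% to 34.0%) for anti-PD-1, 36.9% (33.6% to 40.3%) for ATT-I and 48.2% (45.8% to 50.6%) for the combination. Psmb6 made up 33.0% (30.7% to 35.3%), 33.7% (33.3% to 34.0%), 38.0% (35.5% to 40.5%) and 30.8% (29.1% to 32.4%) of Psmb6 and Psmb9. In all cells the combination had the highest Psmb5 share, with an interval clear of the others, while its intervals for Psmb7 and Psmb6 overlapped those of vehicle. Its Psmb5 share was also the highest in Mki67-positive cells, at 21.1% (19.9% to 22.3%), where the interval overlapped that of ATT-I (16.1% to 20.2%). The same held in Mki67-negative cells, at 20.3% (17.2% to 23.6%), where the interval overlapped that of vehicle (15.7% to 22.6%). In the CD8 gate the Psmb5 share was 14.1%, 17.7%, 16.5% and 21.4%, and the Psmb7 share 43.0%, 33.5%, 37.7% and 48.6%. In the CD4 gate the Psmb5 share was 15.8%, 16.9%, 17.3% and 20.6%, again highest in the combination, but the Psmb7 share was highest in vehicle (50.0%, 39.2%, 44.8% and 47.9%), also in Foxp3-positive cells (52.5%, 36.2%, 39.7% and 45.9%). The pairs differ in transcript length, so a share is not read as protein. The libraries also differ by transcript length, and its part in the differences between shares was not tested. The Psmb7 share was higher in Mki67-positive cells of every library (47.0%, 37.5%, 43.5% and 49.0%) than in Mki67-negative cells (37.4%, 30.3%, 31.8% and 42.5%). The libraries differ in their share of Mki67-positive cells.

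Contrasts between gates within a library have 4 libraries to set against each other, each a different treatment, and were tested with limma over all genes with the library as a block. The p-values measure the spread between these 4 libraries. In all cells, 6 of the 32 members (Psmd1, Psmd13, Psmc1, Psmd2, Psmb6 and Psmd14) were higher in Mki67-positive than in Mki67-negative cells and 0 lower (adjusted p below 0.05), where 13.8% of 5439 genes were higher and 4.93% lower, so that the share of members called was near that of all genes. The count was 0 with cells thinned to equal depth and 0 without the library block. The members' median log2 difference was 0.23 against 0.02 for all genes. Of the members, 30 had an estimate above 0 (52.9% of all genes), 19 were above 0 in every library (26.7% of all genes were), and 15 had an unadjusted p below 0.05 (34.2% of all genes).

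The base scaffold subunit Psmd1 had 0.83, 0.68, 0.79 and 1.04 UMIs per 10000 in Mki67-positive cells, and 0.43, 0.52, 0.47 and 0.68 in negative cells. Its log2 difference was 0.58 ± 0.11 (SE, n = 4 libraries; limma adjusted p = 0.0087), and positive cells were above negative cells in every library. The lid subunit Psmd13 had 1.02, 1.498, 1.09 and 1.19 against 0.66, 1.10, 0.76 and 0.77, a difference of 0.50 ± 0.09 (adjusted p = 0.0074).

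The ATPase Psmc1 (0.41 ± 0.10, adjusted p = 0.023), the scaffold subunit Psmd2 (0.40 ± 0.10, adjusted p = 0.023), catalytic Psmb6 (0.35 ± 0.10, adjusted p = 0.040) and the deubiquitinase Psmd14 (0.33 ± 0.09, adjusted p = 0.045) were also higher. Psmb6 had 1.79, 2.49, 2.33 and 1.81 in positive cells against 1.54, 1.96, 1.53 and 1.48. Of the 6 members called, 5 belong to the regulator and 1 to the core.

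Psmd4 was not among them. It had 1.41, 1.92, 1.57 and 1.56 UMIs per 10000 in positive cells and 1.20, 1.94, 1.497 and 1.94 in negative cells, above in 2 of 4 libraries, and its difference was -0.01 ± 0.11 (adjusted p = 0.96). Psma3 (-0.00, adjusted p = 0.99) and Psmc5 (0.01, adjusted p = 0.96) were beside it at the low end. Psmb5 had 0.22 ± 0.11 (adjusted p = 0.19) and Psmb7 0.21 ± 0.09 (adjusted p = 0.15).

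Mki67-positive cells were deeper, with medians of 21838, 10808, 15324 and 27755 UMIs against 8105, 6270, 5484 and 11836. With every cell thinned to 4000 UMIs, 0 members passed and the members' median was 0.14. Without 1 library, between 1 and 9 members passed: 2 without anti-PD-1, 1 without ATT-I, 9 without the combination and 4 without vehicle. Without cells whose single-UMI genes the deposited values set to 0, 2 passed with a median of 0.15.

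**Figure D5:**
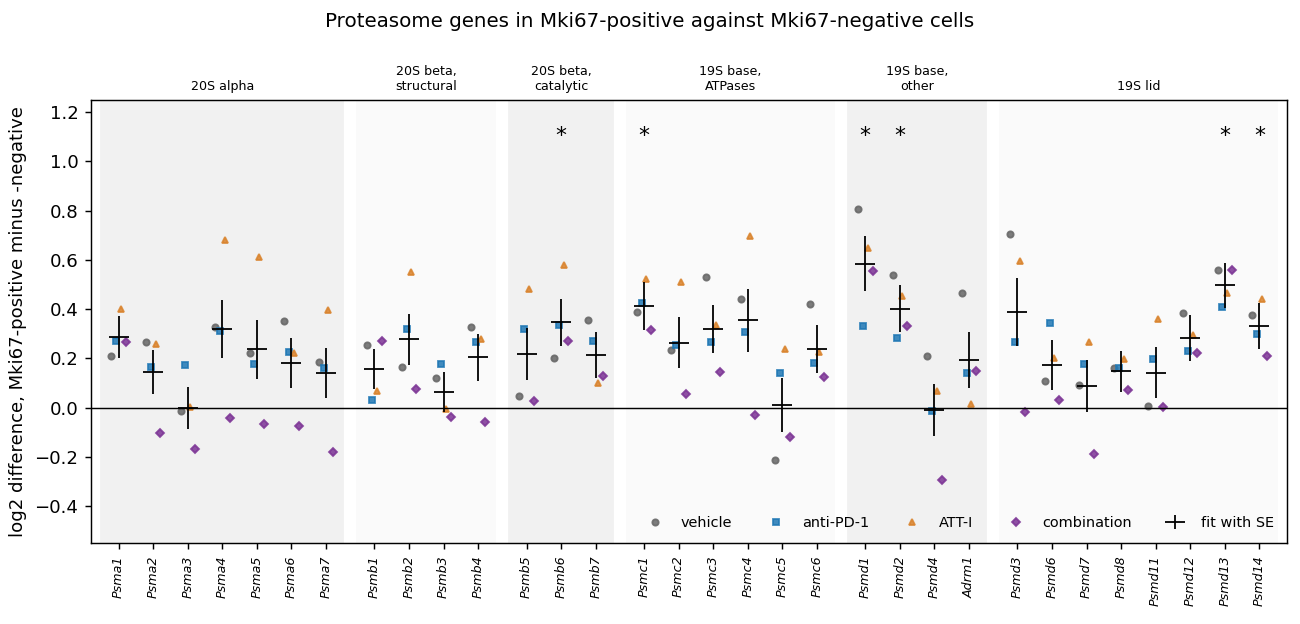
Log2 difference of each member between Mki67-positive and Mki67-negative cells, as 1 point per library with the limma estimate and its standard error in black; asterisks mark an adjusted p below 0.05. Psmd1 and Psmd13 have all 4 libraries above 0, and the 4 points of Psmd4 fall on both sides of 0.

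Within the CD8 gate the same contrast rested on 3 libraries, since vehicle had 5 Mki67-negative cells, and the combination had 12. No member passed (limma adjusted p below 0.05: 0 of 32), where 6.18% of all genes were higher and 0.701% lower; 10 members had an unadjusted p below 0.05 (21.5% of all genes). The members' median was 0.24 and 31 estimates were above 0 (57.5% of all genes). The largest were Psmc1 at 0.84 ± 0.21 (n = 3 libraries, adjusted p = 0.075), Psmd6 at 0.63 ± 0.18 (adjusted p = 0.10) and Psmd2 at 0.58 ± 0.17 (adjusted p = 0.11). Psmd4 had 1.87, 1.57 and 1.58 UMIs per 10000 in positive cells of anti-PD-1, ATT-I and combination against 1.90, 1.22 and 1.97, a difference of 0.01 ± 0.16 (adjusted p = 0.98) with the 3 libraries on both sides of 0. Psmb6 had 0.42 ± 0.14 (adjusted p = 0.14), Psmb5 0.17 and Psmb7 -0.03 (adjusted p = 0.94). Without the combination 6 members passed.

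Within the CD4 gate, Foxp3-positive and Foxp3-negative cells together, 4 members were higher in Mki67-positive cells and 0 lower (8.39% and 4.92% of all genes), with a members' median of 0.22. Psmd1 had 1.15, 0.76, 1.02 and 0.94 UMIs per 10000 in positive cells against 0.37, 0.56, 0.39 and 0.63, a difference of 0.87 ± 0.19 (adjusted p = 0.0087). Psmd13 had 0.55 ± 0.14 (adjusted p = 0.026). Catalytic Psmb6, with 0.46 ± 0.13 (adjusted p = 0.038), and Psmb5, with 1.81, 2.61, 1.78 and 2.26 against 1.07, 1.92, 1.33 and 1.95 (0.43 ± 0.12, adjusted p = 0.036), were the other 2.

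Psmd4 had 1.44, 2.33, 1.80 and 1.51 UMIs per 10000 in positive CD4-gated cells against 1.53, 2.21, 1.63 and 2.14, a difference of -0.09 ± 0.13 (adjusted p = 0.71). It was the lowest estimate of the 32, with Psma3 (-0.02) and Psmc5 (0.04) next, and Psmb7 had 0.31 ± 0.12 (adjusted p = 0.12). The count of members past the test was 0 without vehicle, 1 without anti-PD-1, 2 without ATT-I and 6 without the combination. Whether the CD8 and CD4 gates differ in this contrast was not tested.

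Between CD8-gated cells and Foxp3-negative CD4-gated cells no member passed the test (limma adjusted p below 0.05: 0 of 32), where 10.6% of all genes were higher in the CD8 gate and 15.2% lower, and 3 members had an unadjusted p below 0.05 (38.1% of all genes). The members' median was 0.02. Psmd4 had 1.35, 1.88, 1.43 and 1.60 UMIs per 10000 in the CD8 gate against 1.55, 2.29, 1.80 and 1.44, lower in 3 of 4 libraries, with a difference of -0.16 ± 0.11 (adjusted p = 0.32). The highest estimates were Psmb2 (0.25, adjusted p = 0.10), Psmd3 (0.24) and Psma5 (0.22), the lowest Psma6 (-0.25, adjusted p = 0.097), Psmc2 (-0.25) and Psmc5 (-0.22), and Psmb5, Psmb6 and Psmb7 had 0.06, 0.06 and 0.00. Among the context genes, immunoproteasome Psmb10 was higher in the CD8 gate (0.34, adjusted p = 0.024) and the PA28 subunit Psme2 lower (-0.26, adjusted p = 0.040).

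Foxp3-positive cells of the CD4 gate had more of 3 members than Foxp3-negative cells and less of 0 (4.51% and 5.57% of all genes), with a members' median of 0.22. The members above 0 in every library numbered 18 (15.6% of all genes), and 11 had an unadjusted p below 0.05 (23.7% of all genes). The alpha-ring subunit Psma5 had 2.37, 2.31, 1.95 and 2.03 UMIs per 10000 against 1.42, 1.69, 1.45 and 1.15 (0.58 ± 0.13, adjusted p = 0.013). Psmd1 had 1.46, 0.72, 1.06 and 1.02 against 0.68, 0.61, 0.59 and 0.66 (0.63 ± 0.17, adjusted p = 0.029), and the structural beta subunit Psmb2 had 2.05, 2.63, 2.37 and 1.87 against 1.30, 2.18, 1.80 and 1.247 (0.45 ± 0.13, adjusted p = 0.039). All 3 were higher in every library.

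Psmd3 had a larger estimate that did not pass, 0.65 ± 0.20 (adjusted p = 0.054). Psmd4 had 1.32, 2.22, 1.44 and 1.92 UMIs per 10000 in Foxp3-positive cells against 1.55, 2.29, 1.80 and 1.44, higher only in the combination, and a difference of -0.04 ± 0.14 (adjusted p = 0.89). Psmb5 had 0.33 ± 0.13 (adjusted p = 0.13), Psmb6 0.18 and Psmb7 0.22, and Adrm1 (-0.25) and Psmd11 (-0.10) were lowest, with Psmd4 after them. Foxp3-positive cells were deeper (medians of 15861, 6771, 11304 and 23344 UMIs against 7673, 5744, 5567 and 12613) and more often Mki67-positive (94.7%, 36.4%, 50.0% and 65.4% against 47.3%, 26.6%, 18.9% and 46.2%). The count was 0 without vehicle, 0 without the combination, 1 without ATT-I and 4 without anti-PD-1. With cells thinned to 4000 UMIs, which left 2 libraries, 0 members passed, and Psma5 and Psmb2 turned to -0.64 and -0.54. The count was also 0 without the library block, and 0 without cells whose single-UMI genes the deposited values set to 0.

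Some other genes of the pathway differed in the Mki67 contrast of all cells, where 13.8% of all genes were higher and 4.93% lower. The 19S-associated deubiquitinases Usp14 (0.64, limma adjusted p = 0.017) and Uchl5 (0.91, adjusted p = 0.0015) were higher, 2 of the 4 genes tested in their list. All 15 proliferation genes, a context list outside the pathway, were higher too (median 2.85), and the Mki67 gate itself selects for proliferation. Of the 5 immunoproteasome and PA28 genes, Psmb9 was higher (0.28, adjusted p = 0.048) and the others did not pass, with Psme2 lowest at -0.34. None of 7 assembly chaperones, 6 shuttle and p97 genes and 3 genes of NFE2L1 regulation passed (0, 0 and 0), and Nfe2l1 itself had -0.51 (adjusted p = 0.089). Of 6 ubiquitin genes, Rps27a, which encodes a ubiquitin fused to a ribosomal protein, was lower (-0.21, adjusted p = 0.031). In the list of dissociation and stress genes 2 of 10 were higher and 4 lower.

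For anti-PD-1 against vehicle in all cells, where 18.0% of all genes were higher and 45.3% lower past the fold, 3 of 5 immunoproteasome and PA28 genes were higher past the fold (from Psmb9 at 0.29 to Psmb10 at 0.67) and 3 of 8 assembly chaperones (highest the 20S maturation factor Pomp at 0.46, lowest Psmd5 at -0.37, the 1 lower). Both other activators, Psme3 (-0.58) and Psme4 (-0.36), 4 of 9 shuttle and p97 genes (lowest Nploc4 at -0.69, highest Ufd1 at 0.22) and 2 of 4 19S-associated genes (lowest Ube3c at -0.63) were lower, the last 2 lists at shares near that of all genes. For ATT-I against vehicle, Nfe2l1 had -0.67 and Nfe2l2 0.31 in the list of NFE2L1 regulation, in which 2 of 4 were lower (42.6% of all genes were), and no immunoproteasome or PA28 gene passed the fold (0 of 5, from Psmb9 at -0.17 to Psmb10 at 0.21). Ratios of these related genes are not scaled by transcript length. All genes had medians of 0.26 (anti-PD-1) and 0.11 (ATT-I) under 1000 bases, and of -0.59 and -0.56 above 4000. The part of length in the related genes was not tested.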

How the data were processed

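Single cells from MC38 tumours were profiled in 4 libraries, 1 per arm. Cell Ranger and Seurat were used with build mm10, per the submitters' processing notes; versions, alignment settings and cell filters are not given in the sources used here. The deposited table holds natural log values. Read as the natural log of 1 plus UMIs per 10000, lowered by 1 constant per library (0.247 for vehicle, 0.249 for anti-PD-1, 0.153 for ATT-I, 0.225 for the combination) with values below 0 set to 0, 100% of the deposited values gave whole UMIs within 0.02, and the analysis used these recovered counts. The reason for the constant is not given in the sources used here. It set genes with 1 UMI to 0 in 21 vehicle cells (32.5% of that library's UMIs), 37 anti-PD-1 cells (1.36%), 37 combination cells (35.2%) and 0 ATT-I cells. No cells were removed and no doublet caller was run.

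A level is the summed UMIs of a gene per 10000 summed UMIs of the cells. Arms were compared without a test by the log2 ratio of levels, with exact conditional binomial 95% intervals that cover counting error only, for genes detected in 10% or more of the cells of 1 or both libraries. The fold used to count members as higher or lower is 1.25-fold. Gates were compared with limma 3.58.1 (R 4.3.3, trend, library as a block) on log2 of level plus 0.1, for genes with a mean level of at least 0.2, with at least 10 cells on each side and Benjamini-Hochberg adjustment over all genes. The gate genes were left out of the tests. The scripts ran under Python 3.11.15 with pandas 2.3.3, numpy 2.4.6, matplotlib 3.10.9 and scipy 1.17.1 and were tested on simulated data. Transcript lengths were found for 90.7% of the genes.

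Psmd4, Psmb5, Psmb6 and Psmb7 are named in every comparison, with the 3 highest and 3 lowest members, and of the related lists the highest and lowest member. The ubiquitin gene list is not reported here for the arm comparisons. The members and lists were chosen with earlier results of these data known. Alternatives were other scalings, filters, gates, cell subsets, thinning and left-out libraries. Subsets without cells whose 1-UMI genes were set to 0, and the scaling by transcript length, were added after seeing the data.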

Additional observations from a re-analysis of the deposited data

How the results depend on the processing

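No arm has a replicate library, so counting intervals and tests over 4 differently treated libraries are the only measures of error, and Mki67 or Foxp3 gates miss cells in shallow libraries. The arm comparisons have no pairs, while the gate tests are paired by library through the library block. Of 125 alternative values of the members' arm medians, 110 were kept and 15 moved. Kept means between the median lower and the median upper bound of the members' single counting intervals. These bounds describe single genes and are not an interval of the median, so sizeable shifts can lie inside them. Of 500 values of Psmd4, Psmb5, Psmb6 and Psmb7, 90 left the gene's own interval (19, 29, 24 and 18 in that order), and 7, 10, 17 and 15 changed sign. Of 200 counts past the fold, 123 moved. Psmd4 in anti-PD-1 against vehicle was 0.26 in cells of 5000 to 20000 UMIs and 0.74 relative to the median gene, and in the combination against vehicle 0.69 in Mki67-negative cells. Anti-PD-1 against vehicle moved from 0.31 to 0.55 relative to the median gene and 0.10 relative to genes of the same length class (0.63 and 0.19 in the CD8 gate, 0.54 and 0.10 in the CD4 gate). The length-class values of the CD8 gate (0.19) and the CD4 gate (0.10) are among the 110 kept. The combination against vehicle moved to 0.39 in Mki67-negative cells. Against anti-PD-1 it moved to -0.21 relative to the median gene, -0.22 in cells of 5000 to 20000 UMIs, -0.22 in Mki67-positive cells, 0.050 in Mki67-negative cells and 0.059 relative to the length class, with -0.23 and 0.080 for the first and last in the CD8 gate and -0.33 in CD4-gated cells of 5000 to 20000 UMIs. Against ATT-I it moved to -0.033 relative to the median gene and 0.37 in Mki67-negative cells. Of the alternatives at the same fold, between 4 and 22 members were higher in anti-PD-1 than in vehicle, 1 and 11 in ATT-I and 4 and 18 in the combination, and between 5 and 18 in the combination than in ATT-I; 0 members reached 1.5-fold against vehicle in all cells.

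Counts of members under alternative settings of the gate tests, here and above, stand without the share of all genes called under the same setting. They are not read as results about the members. The count of members past the Mki67 test in all cells (6) was between 1 and 9 without 1 library, 0 without the library block, 20 with array weights, 0 after thinning and 2 without the cells whose 1-UMI genes were set to 0. In the CD8 gate (0) it was 0 to 6 without 1 library, 1 with means over cells, 2 with array weights and 1 with Mki67 from 2 UMIs. In the CD4 gate (4) it was 0 to 6 without 1 library, 0 without a filter, 1 with means over cells, 1 without the block, 18 with array weights, 2 with 1-UMI gates, 2 with Mki67 from 2 UMIs, 0 after thinning (2 libraries) and 1 without the cells named above. Between the CD8 and CD4 gates (0) it was 1 when centred on the median gene. For Foxp3 (3) it was 0 to 4 without 1 library, 0 without a filter, 1 with means over cells, 0 without the block, 1 with array weights, 0 after thinning (2 libraries), 1 in Mki67-positive cells and 0 without the cells named above.

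Most of the estimates that changed sign were near 0, but Psma5 and Psmb2 in the Foxp3 test were not. Psmd4 in the Mki67 test ran from -0.081 to 0.087 without 1 library and was 0.011 after thinning. In the CD8 gate it ran from -0.16 to 0.16, and was -0.090 with means over cells, -0.11 when centred, -0.046 with 1-UMI gates, -0.037 with Mki67 from 2 UMIs and -0.0002 without the cells named above; Psmb7 ran from -0.17 to 0.096, and was 0.16 with array weights and 0.082 with Mki67 from 2 UMIs. In the CD4 gate Psmd4 ran from -0.16 to 0.039 and was 0.014 with array weights. Between CD8 and CD4 gates Psmb7 ran from -0.084 to 0.058, and was -0.010 with means over cells, -0.054 with array weights, -0.029 with 1-UMI gates, -0.0014 after thinning, -0.093 in Mki67-positive cells and -0.079 without the cells named above, and Psmb5 and Psmb6 were -0.12 and -0.091 in Mki67-positive cells. In the Foxp3 test Psmd4 ran from -0.19 to 0.045 and was 0.18 in Mki67-positive cells, and after thinning Psmb6, Psma5 and Psmb2 were -0.024, -0.64 and -0.54. Psma5 and Psmb2 were among the members that passed the main Foxp3 test as higher, and thinning left 2 libraries. The cause was not tested. Of the other alternative values of named members in the gate tests, 373 kept direction and side of the threshold, 92 no longer passed and 3 newly passed. The Foxp3 contrast in Mki67-negative cells (1 library) and the window of 5000 to 20000 UMIs in the CD8 gate (under 30 cells) were not run.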
